A study of Nematostella vectensis with 30 samples.

Results

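The comparison described here sets the small RNAs pulled down with NveAGO2 from adult males of the sea anemone Nematostella vectensis against those pulled down with control immunoglobulin from the same kind of animal. Its members are 4 libraries of the 30 in the series, chosen by their titles, and 2 of them are AGO2 immunoprecipitates (IPs) and 2 are IgG IPs. They belong to a set of 18 IP libraries in which AGO1 IP, AGO2 IP and IgG IP were each made in 2 replicates at 3 stages, the early planula, the primary polyp and the adult male. The AGO2 IPs were made with a rabbit antibody raised against an N-terminal fragment of NveAGO2, and the IgG IPs with total rabbit immunoglobulin, which has no chosen target in the animal. All libraries came from lysates of whole animals, so every tissue of the adult male contributed, and neither the labels nor the methods give a mutation, transgene or treatment for these animals. One characteristic in the labels gives AGO as the antibody of the IgG samples too, and their titles, which say IgG, were followed. The values are read counts per mature miRNA arm in a table of 255 rows, 138 for guides and 117 for stars. They are given as CPM, the number per 1000000 reads mapped to the genome, with the mapped read totals taken from the study's own sequencing summary.

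An miRNA is cut from a hairpin as a short duplex, and an Argonaute protein keeps one strand, the guide, while the other strand, the star, is usually released and degraded. The guide directs Argonaute to messenger RNAs, largely through the seed, which covers bases 2 to 8. Cnidarians such as Nematostella often pair guide and target over nearly the whole guide, and the target is then sliced. Nematostella has 2 Argonautes of the miRNA pathway, NveAGO1 and NveAGO2. A pull-down with IgG holds RNA that sticks to beads and immunoglobulin, so it gives the background against which an arm in the AGO2 IP has to be read. The table's newly annotated miRNAs are called new miR here, with their own numbers, and the remaining ones carry the names they already had.

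The guides below had the highest levels in the AGO2 IP of adult males, and they are shown because they set most of the cargo. They are mature sequences from the deposited table, written 5′ to 3′, and capitals mark the seed.
miR-2024e-3p: uUGCACAUuaccaauauucuga
miR-100-5p: gACCCGUAgauccgaacuugug
miR-2023-3p: aAAGAAGUacaagugguaggg
miR-2026-5p: uUUCAAAUgucuacugaugga
miR-2029-3p: gGUAAACUauggauugcgcuuc
miR-2028-5p: uAAUGUUCcugcuuguuccua
miR-2025-3p: uUUUUUAGcccgcggaaguugu
miR-2027-5p: gCUUGUUGguaauuuugcaucu
miR-2040a-3p: uUUGUCUCguaacugcccugaag
miR-2036-3p: uAUAUUGUacgacucucaucgua
miR-2032a-3p: aGGUAACUguugcagcaucc
miR-2035-5p: aCAUGGUCuguuacaaggga

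The next guides had counts in the AGO2 IP but were not called against IgG. They are shown because the background decides how their counts are read.
new miR-8 guide: aAGGUGACcucgaucuucaugau
miR-9424a: uAUAGUUGgcucaucgaggcagu
new miR-103-1 guide: uUCUCCUUugaccucuccagacu
miR-9417: uGAGAACGuaucggcagggucu
miR-2022-3p: uUUGCUAGuugcuuuugucccgc

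Last come the stars with the highest levels in the AGO2 IP, which pair with miR-100-5p, miR-2023-3p and miR-2028-5p above, and a pair of guides that lie close to a guide shown above.
miR-100-3p: aCAGGCUCguuucuacggauca
miR-2023-5p: cUGCCACCuguauuucuauca
miR-2028-3p: gGAACUAGcaggagcauuaag
miR-2024f-3p: uUGCACAUcaccaauguucuga
miR-2040b-3p: uUCGUCUCguaacugcccugaag

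The 138 guides held 5 seeds that occurred in 2 guides each. These were UGCACAU in miR-2024e-3p and miR-2024f-3p, GGUAACU in miR-2032a-3p and miR-2032b-3p, CACAAAG in new miR-44-1 and new miR-44-2, AAUGUGG in new miR-48-1 and new miR-48-2, and ACACAUU in miR-9457 and new miR-51. miR-2040a-3p and miR-2040b-3p do not share a seed, although they share a run of at least 15 bases. A read that fits both members of such a pair can be counted for either or for both, so the counts of near-identical arms are uncertain. The same holds for both arms of miR-2024a and miR-2024g, and for new miR-35 with new miR-44-1 and new miR-44-2. Likewise the new miR-46 guide cannot be fully parted from the new miR-47-1 star. Counts were the same in every library for miR-2032a-3p and miR-2032b-3p, and for new miR-48-1 and new miR-48-2 in both arms, and each such set was counted once.

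Reads of miRNAs were 20.3-fold more frequent in the AGO2 IP than in the IgG IP, or 32.4-fold when all sequenced reads were the denominator. They made up 11.8% (95% exact binomial interval 11.72 to 11.79%) and 9.96% (9.93 to 9.98%) of genome-mapped reads in the AGO2 libraries. In the IgG libraries they made up 0.556% (0.549 to 0.563%) and 0.513% (0.503 to 0.523%). The means were 10.9% and 0.534%, and the groups did not overlap. With 2 libraries a group, an exact two-sided permutation test cannot give a p under 0.333, so none is read from it. Behind these shares stood 475478 and 486203 miRNA counts in the AGO2 libraries, against 22802 and 9878 in the IgG libraries. Mapped reads numbered 4045212 and 4882975 in the AGO2 libraries and 4103341 and 1924944 in the IgG libraries, so 1 count was worth 0.247, 0.205, 0.244 and 0.52 CPM in that order. The second IgG library was the shallowest, and a mapped share of 5.99% of its reads, against 15.6 to 17.6% in the other 3, went with it. Intervals of this kind cover counting error only and leave out the spread between libraries. PCR copies of a molecule were not told apart, so the intervals may be too narrow even for counting error.

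Of 196 arms tested, 150 were higher in the AGO2 IP than in IgG and 0 were lower, so 76.5% of all arms tested were called higher. The study had kept miRNAs partly for their enrichment in an AGO IP over IgG, so a high share was in part built in. The test was edgeR's quasi-likelihood F test over all 18 IP libraries, each scaled to its reads mapped to the genome, and the threshold was an adjusted p under 0.05. Of arms lower in the AGO2 IP, 1 had an unadjusted p under 0.05, and DESeq2 called 135 higher and 0 lower. The median log2 fold change was 4.65, or 4.29 over the 120 arms that had counts in IgG and 3.46 with the arms at 0 in IgG set to their lower bound, and the smallest among called arms was 2.28. Both AGO2 libraries lay above both IgG libraries for 161 arms (82.1%) and below them for 2 (1.02%). Among the 150 called arms 143 had groups that did not overlap. Without the first IgG library 108 arms were called, without the second 112.

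Every one of these folds carries the gain of miRNA reads as a whole. When libraries were instead scaled to their sum of miRNA counts, the median moved by -3.69 on the log2 scale to 0.96, and 4 arms were called higher (2.04%) and 10 lower (5.1%). TMM factors gave 49 higher and 7 lower, and median-of-ratios size factors 16 higher and 10 lower. On the miRNA-sum scale 44 of the 150 called arms had a negative log2 fold change, so their share of all miRNA reads was smaller in the AGO2 IP than in IgG even though their number per mapped read was larger. None of the arms lower on that scale was among the 150, while the 4 higher ones, miR-9448, miR-9428, miR-9414-5p and new miR-35, all were. No input libraries were used here. Within the AGO2 IP, more binding of an arm cannot be told apart from more cells that make it or more copies in each cell. The same holds between stages.

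**Figure D1:**
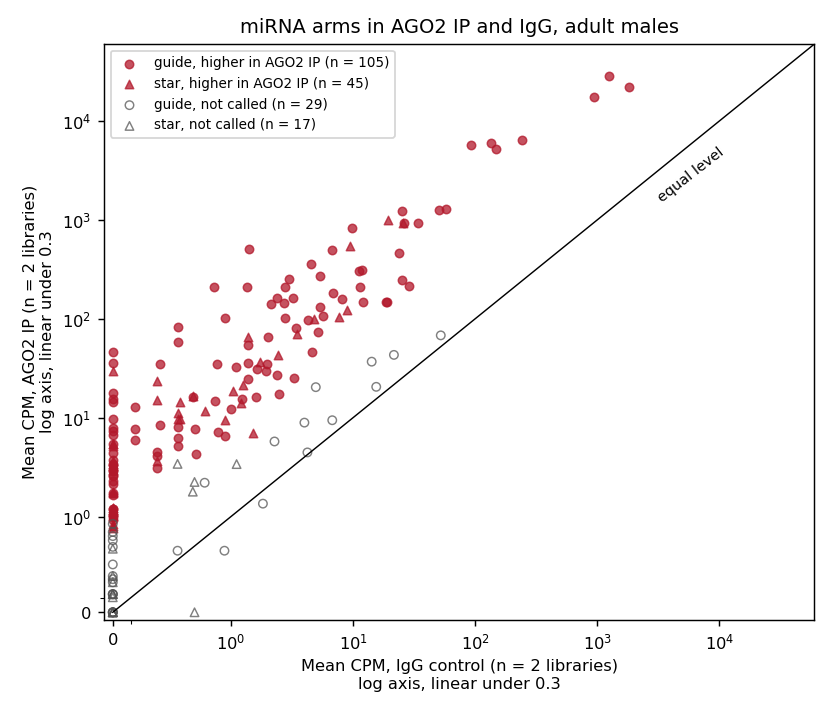
Level of every arm in the adult AGO2 IP against the adult IgG IP, each as the mean CPM of 2 libraries on log axes, with guides and stars and the tests' calls marked separately. The 150 called arms lie above the line of equal levels, at log2 fold changes of 2.28 or more, although 44 of the called arms were negative on the scale of miRNA counts alone.

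The arms that could not be tested or called were mostly rare. The filter asked for at least 10 counts in at least 2 of the 18 libraries, 56 arms failed it, and 37 of these had 0 counts in both AGO2 libraries. The highest summed AGO2 count among those 56 was 11. Of the tested arms, 4 passed only through the adult AGO2 libraries, so for these the filter favoured a difference. Both IgG libraries held 0 counts for 76 tested arms, 48 of them called, and 1 to 3 counts for 27, of which 23 were called. For arms with 10 or more IgG counts the call was 57 of 67. Over all 4 libraries 47 arms had no count, which allows up to 3 counts in the summed IgG reads, or 0.498 CPM.

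Most of the cargo came from 3 guides, of which 1 was higher in the AGO2 IP than in the AGO1 IP and 2 were lower. miR-2024e-3p stood at 22271 and 34439 CPM in the AGO2 IP, against 991 and 1513 CPM in IgG. The log2 fold change was 4.50 with an approximate standard error (SE) of 0.96 (edgeR adjusted p = 2.06e-04), and the IgG mean was 4.42% of the AGO2 mean. From here on the SE follows the ± sign. It is the size of the log2 fold change divided by the square root of the F statistic of its test. miR-100-5p, which belongs to the only miRNA family that cnidarians are widely held to share with bilaterians, stood at 30803 and 12794 CPM in the AGO2 IP and at 2268 and 1367 CPM in IgG. The log2 fold change of 3.58 ± 0.96 (edgeR adjusted p = 0.00152) was smaller than the median over all arms, and it was -0.79 on the miRNA-sum scale and -0.22 with median-of-ratios factors. miR-2023-3p stood at 17336 and 17972 CPM in the AGO2 IP and at 942 and 952 CPM in IgG, with a log2 fold change of 4.22 ± 0.92 that turned to -0.12 on the miRNA-sum scale. The AGO2 and IgG libraries did not overlap for any of these guides. In the AGO1 IP miR-2024e-3p had 2087 and 2026 CPM, miR-100-5p 157506 and 67760 CPM, and miR-2023-3p 80984 and 72483 CPM. The 3 most abundant guides of each library made up 59.9% and 65.5% of miRNA counts in the AGO2 IP, 75.6% and 74.7% in IgG, and 90.2% and 85.7% in the AGO1 IP.

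For several of the next guides in level IgG made up a smaller part of the AGO2 value. miR-2028-5p had 7476 and 4084 CPM in the AGO2 IP and 112 and 72.2 CPM in IgG, so that IgG stood at 1.59% of the AGO2 level, and its log2 fold change was 5.97 ± 1.10 (edgeR adjusted p = 8.51e-05). miR-2029-3p had 7038 and 4885 CPM in the AGO2 IP and 115 and 155 CPM in IgG, a log2 fold change of 5.47 ± 1.07. miR-2036-3p had 1694 and 751 CPM in the AGO2 IP and 23.4 and 26.5 CPM in IgG, a log2 fold change of 5.62 ± 1.13. These 3 guides were also far above the AGO1 IP, by 5.48, 4.52 and 3.52 on the log2 scale, although the last of these lost its call without the first AGO2 library (edgeR adjusted p = 0.0517) or the second AGO1 library (0.0865). miR-2035-5p was alike, with 1064 and 779 CPM in the AGO2 IP, 19.7 and 32.7 CPM in IgG, and a log2 fold change of 5.14 ± 1.08.

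miR-2026-5p and miR-2025-3p were above IgG, and their difference from the AGO1 IP missed the threshold. miR-2026-5p had 7133 and 5808 CPM in the AGO2 IP, against 199 and 287 CPM in IgG and 5049 and 1928 CPM in the AGO1 IP. miR-2025-3p had 6253 and 4171 CPM in the AGO2 IP, against 175 and 122 CPM in IgG and 5312 and 3296 CPM in the AGO1 IP. Their log2 fold changes over IgG were 4.73 ± 1.06 and 5.13 ± 0.96, and over AGO1 0.89 ± 0.92 (edgeR adjusted p = 0.431) and 0.28 ± 0.81 (edgeR adjusted p = 0.812). The study lists both as over 70% NveAGO1 guides. The other guides of the leading 12 were miR-2027-5p, miR-2040a-3p and miR-2032a-3p, with 699 to 1580 CPM in the AGO2 libraries, IgG levels of 32.7 to 65.8 CPM, and log2 fold changes of 4.46 to 4.76.

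**Figure D2:**
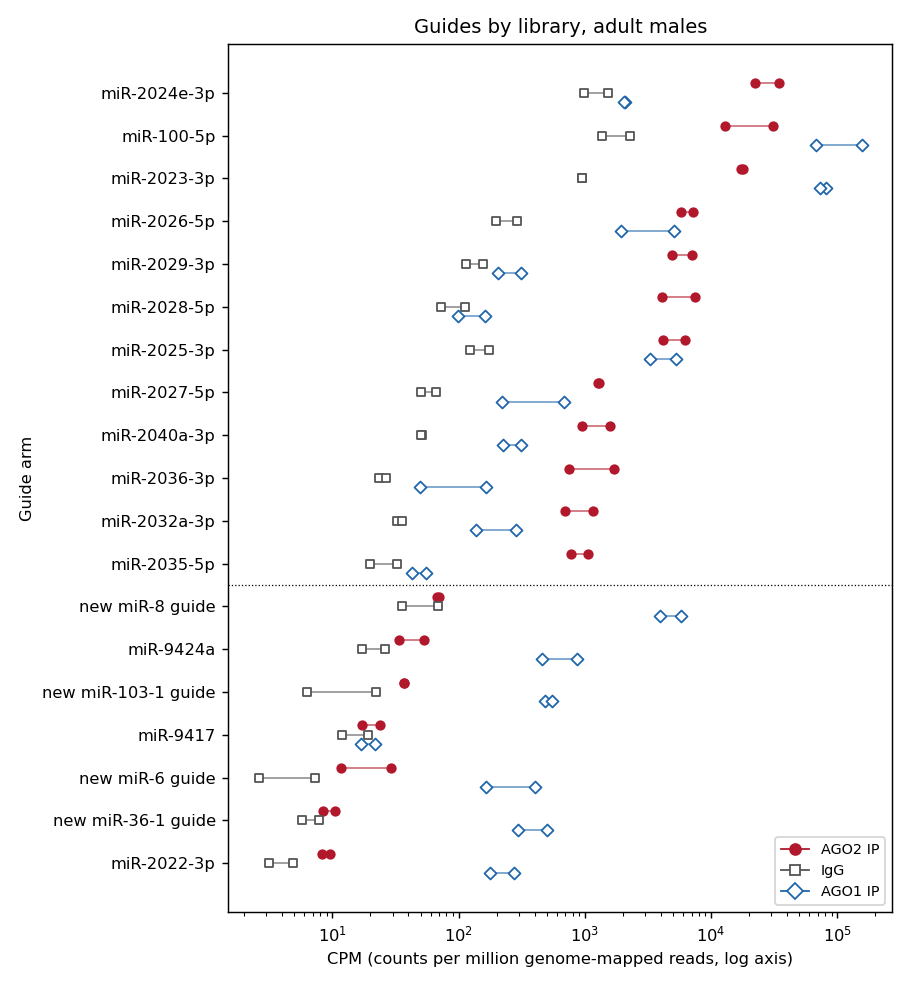
CPM of the 12 leading called guides (above the dotted line) and of 7 guides that were not called (below it), 1 point per library on a log axis, with the 2 libraries of an IP joined by a line. The AGO2 points of every leading guide lie to the right of its IgG points, while the ranges of new miR-8 and miR-9417 in the AGO2 IP and IgG meet or overlap; with miRNA-sum scaling miR-100-5p and miR-2023-3p turn negative.

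The largest folds belonged to guides of moderate level that were nearly absent from IgG, and in the first 2 named here the AGO2 replicates lay far apart. miR-9428 had 967 and 38.1 CPM in the AGO2 IP and 0.731 and 2.08 CPM in IgG, a log2 fold change of 8.56 ± 1.58 (edgeR adjusted p = 8.51e-05). miR-9414-5p had 374 and 49.6 CPM in the AGO2 IP and 1.46 and 0 CPM in IgG, a log2 fold change of 7.89 ± 1.37. In both the first AGO2 library was the high one, and so was the first AGO1 library (52.5 and 5.06 CPM for miR-9428, 25 and 4.1 CPM for miR-9414-5p). Of the 150 called arms 24 had AGO2 libraries that differed over 3-fold. The replicates lay closer for new miR-35, with 274 and 146 CPM in the AGO2 IP, 2.19 and 0.52 CPM in IgG and a log2 fold change of 7.14 ± 1.34. They were also closer for new miR-33, with 130 and 73.9 CPM in the AGO2 IP, 0.244 and 1.56 CPM in IgG and 7.02 ± 1.32.

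Where IgG held 3 counts or fewer the fold rests on those counts. The new miR-37 guide had 116 and 50.2 CPM in the AGO2 IP and 3 IgG counts, all in the first library, and its pooled ratio was 161 with a counting interval of 54.7 to 780. The new miR-83 guide had 45 and 71.1 CPM in the AGO2 IP and likewise 3 IgG counts, with a pooled ratio of 119 (40.5 to 579). miR-9448, an RNA of 18 nt, had 52.6 and 18.8 CPM in the AGO2 IP and 0 counts in IgG. It was at least 68.6-fold higher, taking 3 counts over both IgG libraries as the floor. The new miR-29 guide, with 20 and 10.8 CPM in the AGO2 IP and 0 counts in IgG, was at least 30.2-fold higher. Without the adult AGO2 libraries the new miR-29 guide would not have passed the count filter, so the filter itself favoured a difference from IgG. The new miR-39-1 guide and the new miR-48-1 guide were called too, but their counts came almost only from the first AGO2 library, with 93.2 and 0 CPM and with 69.2 and 0 CPM in the AGO2 IP. The AGO1 IP had the same split, with 2.98 and 0 CPM and with 165 and 0 CPM for these guides. Both were named after their values were seen.

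A few guides with a fair number of counts in the AGO2 IP were not called against IgG. The new miR-8 guide had 66.8 and 69.2 CPM in the AGO2 IP, 68.7 and 35.8 CPM in IgG, and 3926 and 5802 CPM in the AGO1 IP. Over IgG the log2 fold change was 0.38 ± 0.99 (edgeR adjusted p = 0.747), and it was -3.95, -2.28 and -3.46 with miRNA-sum, TMM and median-of-ratios scaling. Against the AGO1 IP it was lower by 6.16 on the log2 scale. miR-9424a had 52.9 and 33.4 CPM in the AGO2 IP, 26.1 and 17.1 CPM in IgG and 453 and 874 CPM in the AGO1 IP, with a log2 fold change over IgG of 0.99 ± 0.99. The new miR-103-1 guide had 36.8 and 36.9 CPM in the AGO2 IP, 22.2 and 6.23 CPM in IgG and 482 and 550 CPM in the AGO1 IP, with 1.36 ± 1.05. The new miR-36-1 guide, with 8.4 and 10.4 CPM in the AGO2 IP and 7.8 and 5.71 CPM in IgG, had 0.47 ± 1.08. Both AGO2 libraries lay above both IgG libraries for miR-9424a, new miR-103-1 and new miR-36-1, and the groups overlapped for new miR-8. All 4 of these log2 fold changes were negative under each of the 3 other scalings.

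miR-9417 differed from these guides in that the AGO1 IP held no more of it. It had 17.1 and 24 CPM in the AGO2 IP, 19 and 11.9 CPM in IgG, and 21.9 and 16.7 CPM in the AGO1 IP. The log2 fold change was 0.40 ± 0.92 over IgG (edgeR adjusted p = 0.71) and 0.09 ± 0.91 over AGO1, and the IgG mean was 75.5% of the AGO2 mean. The value over IgG turned to -3.91, -2.27 and -3.42 with miRNA-sum, TMM and median-of-ratios scaling. The new miR-6 guide lay between the classes, with 11.6 and 29.1 CPM in the AGO2 IP and 7.31 and 2.6 CPM in IgG. Its log2 fold change of 2.0 ± 1.18 missed the threshold (edgeR adjusted p = 0.12), passed it when only the 6 adult libraries were fitted (adjusted p = 0.0284), and was negative under the other scalings. Of the 46 arms not called, 29 were guides and 31 had fewer than 10 counts over the 4 libraries. Among the 11 uncalled guides with 10 or more counts, 8 were lower in the AGO2 IP than in the AGO1 IP, beside 21 of 134 guides and 12.2% of all arms tested. For new miR-6, 1 of these 8, that call was lost without the first AGO2 library (edgeR adjusted p = 0.0883) or the second AGO1 library (0.0877). The count of 8 was in part built in. Both comparisons use the same AGO2 libraries, and the study kept miRNAs partly for their enrichment in an AGO IP over IgG.

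Guides that the study assigned to NveAGO2 had larger folds over IgG than those it assigned to NveAGO1. Of the guides listed as over 70% NveAGO2, 54 of 57 tested were called higher, with a median log2 fold change of 5.60, or 5.39 over the 43 with IgG counts and 4.78 with bounds for the others. Of those listed as over 70% NveAGO1, 26 of 37 were called, with a median of 3.44, or 3.30 over the 34 with IgG counts and 3.23 with bounds for the others. Guides listed without preference gave 8 of 11 and 4.13, and guides on no list 15 of 27, with only 3 of these having IgG counts. Over all arms the share called was 76.5% and the median 4.65. The study drew these lists partly from the AGO1 and AGO2 libraries used here, so they are not independent evidence of a direction.

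Guides listed as NveAGO1 were nonetheless a large part of what the AGO2 IP held. They made up 53.8% and 42.6% of its miRNA counts, 69.6% and 57% of those in IgG, and 97.6% and 96.1% of those in the AGO1 IP. Guides listed as NveAGO2 made up 42% and 52% in the AGO2 IP, 26.5% and 39.5% in IgG, and 1.69% and 2.4% in the AGO1 IP. Both IgG values thus lay between those of the AGO2 and AGO1 IPs for the NveAGO1 guides, and for the NveAGO2 guides below those of the AGO2 IP and above those of the AGO1 IP. Over 57 guides, levels in the AGO2 and IgG libraries had Spearman correlations of 0.543 to 0.757, those in the IgG and AGO1 libraries 0.519 to 0.71, and those in the AGO2 and AGO1 libraries 0.127 to 0.362. The AGO2 replicates had 0.922. These are descriptions across guides that share libraries, and carry no test.

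**Figure D3:**
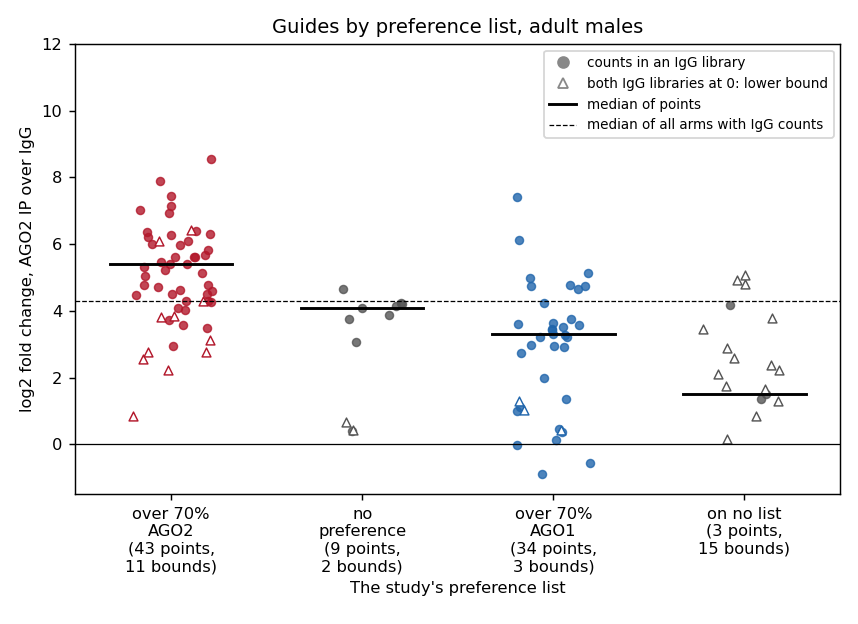
Log2 fold change of AGO2 over IgG in adult males for guides grouped by the study's listing (over 70% NveAGO2, no preference, over 70% NveAGO1, on no list). Points are guides with IgG counts, triangles are lower bounds for guides with none, black bars are medians of the points (5.39, 4.08, 3.30 and 1.52) and the dashed line is the median of 4.29 over all arms with IgG counts. Scaling to miRNA counts would lower the median of all arms by 3.69 and leave 26 of the 37 NveAGO1-listed guides negative, 3 of which are negative here too.

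The median fold was higher for shorter than for longer guides. It was nearly the same for guides with and without a first U, except when guides at 0 in IgG were set to their bounds. Guides of 21 nt or shorter were called in 45 of 53 cases with a median log2 fold change of 5.39, and guides of 22 nt or longer in 60 of 81 cases with a median of 4.27. Guides that begin with U were called in 62 of 82 cases (median 4.68) and guides with another first base in 43 of 52 (median 4.70). Over all arms 76.5% were called. By counts, guides and stars that begin with U made up 43.6% and 55.7% of miRNA counts in the AGO2 IP, 33.8% and 46.1% in IgG, and 9% and 12.1% in the AGO1 IP. These shares follow a few abundant arms, since miR-2024e-3p begins with U and miR-100-5p and miR-2023-3p do not. With bounds the medians were 4.22 for the shorter and 3.45 for the longer guides, and 3.30 for guides with U first and 4.13 for the others. No set test was made on any of these lists.

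Of newly annotated guides 60 of 84 were called, with a median log2 fold change of 4.74, and of previously known guides 45 of 50, with a median of 4.65, beside 76.5% called over all arms. Over guides with IgG counts the medians were 4.09 for new and 4.58 for known ones, and with bounds 3.26 and 4.50. The new guides were rarer, making up 3.72% and 3.23% of miRNA counts in the AGO2 IP. The annotation of new miRNAs asked for enrichment in an AGO IP, and the study also dropped earlier miRNAs that lacked it. Being above IgG was thus in part a condition of being listed, for new and known guides alike.

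Of the 8 guides of miRNAs shared with other hexacorallians, the corals and sea anemones, both AGO2 libraries lay above both IgG libraries for all 8, and 7 were called, 1 more than the share of 76.5% over all arms would give. The guide that was not called was miR-2022-3p, a deeply conserved cnidarian miRNA, which had 9.64 and 8.19 CPM in the AGO2 IP, 4.87 and 3.12 CPM in IgG and 275 and 176 CPM in the AGO1 IP. Its log2 fold change over IgG was 1.13 ± 0.89 (edgeR adjusted p = 0.243) on 39 and 40 AGO2 counts, and it was -3.21, -1.53 and -2.68 with miRNA-sum, TMM and median-of-ratios scaling. Against the AGO1 IP it was lower by 4.66 on the log2 scale (edgeR adjusted p = 8.10e-04). Besides miR-100, miR-2023, miR-2025 and miR-2036, described above, the list holds miR-2030-5p, miR-2050-3p and miR-9425. miR-2030-5p had 75.9 and 221 CPM in the AGO2 IP and 16.8 and 7.27 CPM in IgG, with a log2 fold change of 3.61 ± 0.92 that turned to -0.67 and -0.26 with miRNA-sum and median-of-ratios scaling. miR-9425 had 170 and 199 CPM in the AGO2 IP and 6.34 and 7.27 CPM in IgG, with a log2 fold change of 4.76. miR-2050-3p had 45.7 and 19 CPM in the AGO2 IP and 2.19 and 0 CPM in IgG, with a log2 fold change of 4.66.

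All 4 miR-2024 guides were above IgG, with log2 fold changes between 4.27 and 4.73. miR-2024f-3p, which shares the seed of miR-2024e-3p, had 452 and 463 CPM in the AGO2 IP and 11 and 36.9 CPM in IgG. miR-2024a-3p had 135 and 182 CPM in the AGO2 IP and 4.87 and 11.4 CPM in IgG. On the miRNA-sum scale the values of miR-2024f-3p and miR-2024a-3p were -0.09 and -0.02. The miR-2024g-5p guide had 9.89 and 22.7 CPM in the AGO2 IP and 0.975 and 0 CPM in IgG, nearly the counts of the miR-2024a-5p star, with which it shares most of its bases. Reads of these 2 arms cannot be told apart. The study's arm labels, which were followed here, and its guide list disagree on which arm is the guide of miR-2024g, and likewise for miR-2029, miR-2032b, miR-2034, miR-2038, miR-2042 and miR-2047.

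The near-identical guides miR-2040a-3p and miR-2040b-3p were both above IgG, and against the AGO1 IP miR-2040a-3p was higher and miR-2040b-3p lower. miR-2040a-3p had 946 and 1580 CPM in the AGO2 IP, 51.2 and 49.9 CPM in IgG and 226 and 313 CPM in the AGO1 IP. miR-2040b-3p had 250 and 182 CPM in the AGO2 IP, 31.9 and 25.5 CPM in IgG and 2354 and 1618 CPM in the AGO1 IP. Their log2 fold changes over IgG were 4.64 ± 1.0 and 2.91 ± 0.92 (edgeR adjusted p = 0.0051), and over AGO1 2.23 ± 0.89 and -3.20 ± 0.92. The call of miR-2040a-3p over AGO1 (edgeR adjusted p = 0.0397) was lost without any 1 of the 4 AGO2 and AGO1 libraries, and that of miR-2040b-3p without the second AGO2 library (adjusted p = 0.0671). Over IgG the value of miR-2040b-3p lost its call without the second IgG library (2.76, edgeR adjusted p = 0.0516) and turned to -1.44 and -0.88 with miRNA-sum and median-of-ratios scaling. New miR-69 was the other guide with a small fold among those called, with 18.3 and 16.6 CPM in the AGO2 IP and 3.9 and 1.04 CPM in IgG. Its log2 fold change of 2.73 ± 1.08 (edgeR adjusted p = 0.0223) lost its call without the first AGO2 library (adjusted p = 0.0601), without the second IgG library (0.148) or against a 3-fold threshold (0.0687), and was -1.61 and -1.14 on those same scales.

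Stars as well as guides were above IgG in the AGO2 IP. Of 62 stars tested 45 were called higher, with a median log2 fold change of 4.51, beside 105 of 134 guides and 4.68. With bounds these medians were 2.68 and 3.74. Stars made up 2.97% (2.92 to 3.02%) and 3.12% (3.07 to 3.17%) of miRNA counts in the AGO2 IP and 1.98% (1.8 to 2.17%) and 1.66% (1.42 to 1.93%) in IgG. The means, 3.04% and 1.82%, had a ratio of 1.67 and did not overlap, with an exact permutation p of 0.333, the smallest that 2 against 2 allows. Most of the AGO2 share came from 2 stars. Of 14109 and 15149 star counts in the AGO2 IP, miR-100-3p held 4352 and 3800 and miR-2023-5p 3976 and 4912. Of 452 and 164 in IgG they held 122 and 42, and 132 and 13. The share is thus no measure of stars in general. In the AGO1 IP stars made up 0.401% and 0.687%.

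The most abundant stars of the AGO2 IP belonged to guides that the AGO1 IP held in far larger amounts. miR-100-3p, the star of miR-100, had 1076 and 778 CPM in the AGO2 IP, 29.7 and 21.8 CPM in IgG and 37.8 and 27.6 CPM in the AGO1 IP. miR-2023-5p, the star of miR-2023, had 983 and 1006 CPM in the AGO2 IP, 32.2 and 6.75 CPM in IgG and 25 and 23.2 CPM in the AGO1 IP. Their log2 fold changes over IgG were 5.16 ± 1.24 and 5.66 ± 1.24, and over AGO1 4.82 and 5.36, whereas their guides were lower in the AGO2 IP than in the AGO1 IP by 2.37 and 2.12. The calls of the guides against AGO1 (edgeR adjusted p = 0.032 and 0.0369) were lost for miR-100-5p without the second AGO2 library (0.203) or the first AGO1 library (0.22), and for miR-2023-3p without any 1 of the 4 libraries. miR-2028-3p, the star of a guide that AGO2 itself held, had 611 and 487 CPM in the AGO2 IP and 7.07 and 11.9 CPM in IgG, with a log2 fold change of 5.86 ± 1.15.

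Set against its own guide, each of these stars was a small part of the pair. There were 3.49 and 6.08 star counts per 100 guide counts of miR-100 in the AGO2 IP, 1.31 and 1.6 in IgG, and 0.024 and 0.0407 in the AGO1 IP. For miR-2023 there were 5.67 and 5.6 in the AGO2 IP, 3.41 and 0.709 in IgG, and 0.0308 and 0.0321 in the AGO1 IP. miR-2028 had 8.17 and 11.9 in the AGO2 IP, 6.32 and 16.5 in IgG, and 14.8 and 25.7 in the AGO1 IP. The opposite case was miR-2029, with 2.23 and 1.79 in the AGO2 IP, 4.67 and 8.05 in IgG, and 147 and 132 in the AGO1 IP, where the star miR-2029-5p outnumbered its guide. Its level was 157 and 87.7 CPM in the AGO2 IP, 5.36 and 12.5 CPM in IgG and 460 and 272 CPM in the AGO1 IP. The study's arm label and guide list disagree on which arm of miR-2029 is the guide.

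**Figure D4:**
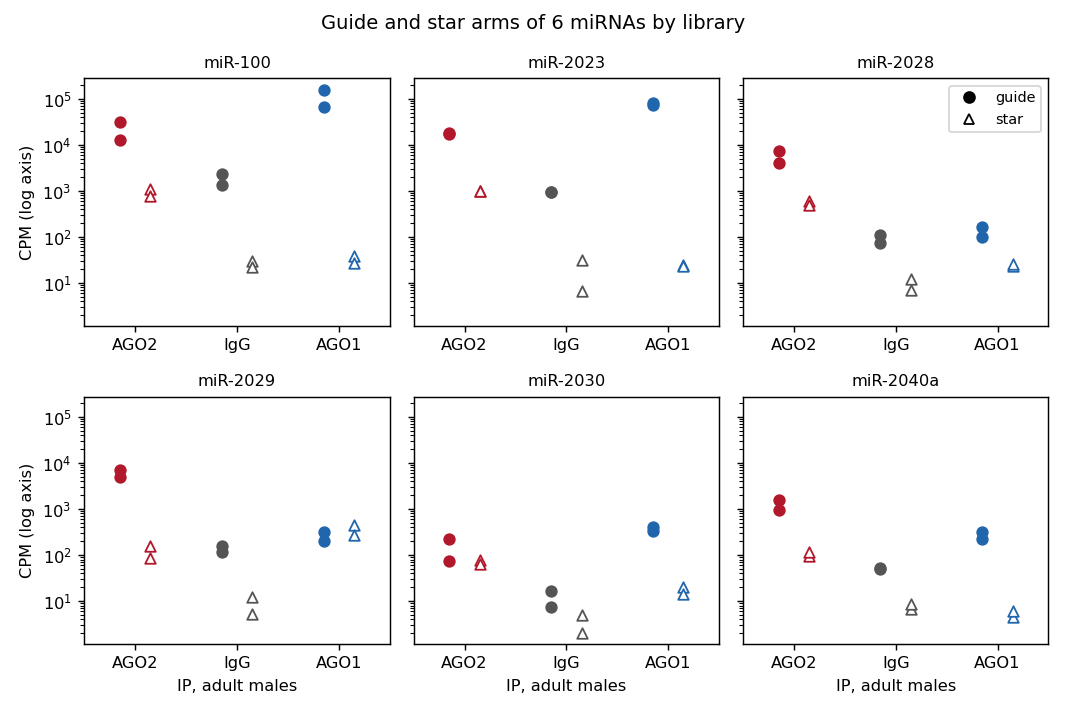
CPM on a log axis of the guide (filled circles) and star (open triangles) of 6 miRNAs in the AGO2, IgG and AGO1 IPs of adult males, 1 point per library. The stars of miR-100 and miR-2023 are highest in AGO2, at 778 to 1076 CPM, although their guides are highest in AGO1, and for miR-2029 the star passes its guide in AGO1 only. For miR-2029 the study's arm label and guide list disagree.

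The star to guide ratio needs no library size, and over 62 miRNAs with both arms tested it was called different between AGO2 and IgG for 0 (0%). Unadjusted p was under 0.05 for 5, and the smallest adjusted p was 0.0639. The median over these miRNAs was -0.57 on the log2 scale. Simulated pairs with equal ratios gave a median of -0.472, so the sign of that value is not read. The smallest p belonged to new miR-83 (-4.47), miR-9429 (-8.27, with 0 star counts in AGO2 and 3 in IgG) and miR-2036 (-4.00, resting on 4 star counts in the first IgG library). The value of miR-2036 turned to 1.02 without that library. On the positive side miR-100 had 1.68 and miR-2023 had 1.73. At the low star counts of IgG a ratio that was not called is not shown to be equal. Of 31 simulated pairs with an 8-fold higher star to guide ratio in AGO2, 1 was called.

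Other stars of the AGO2 IP had lower levels. miR-2030-3p had 77.4 and 64.3 CPM in the AGO2 IP and 4.87 and 2.08 CPM in IgG, so in the first AGO2 library it had about as many counts as its guide (102 per 100) and in the second fewer (29.1). The value over IgG, 4.30 ± 1.08, was -0.05 on the miRNA-sum scale. miR-2040a-5p had 93.4 and 116 CPM in the AGO2 IP and 6.58 and 8.83 CPM in IgG, with a log2 fold change of 3.77 ± 1.10 that turned to -0.56 there. The new miR-85 star was absent from both IgG libraries and stood at 24.2 and 35.6 CPM in the AGO2 IP, at least 61.2-fold higher. The stars of new miR-29 and new miR-76 were likewise at 0 in IgG and at least 10.6-fold and 10.1-fold higher. The call of the new miR-76 star was lost with DESeq2 (adjusted p = 0.0596). The new miR-29 star, like its guide, would not have passed the count filter without the adult AGO2 libraries. The new miR-32 star had 2 IgG counts and a pooled ratio of 70.9 (19.4 to 589). The new miR-19 star, rarer at 20.3 and 10 CPM in the AGO2 IP and 0.487 and 0 CPM in IgG, was called too.

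For 8 of 115 miRNAs with both rows, the arm named star had a higher mean than the guide in the AGO2 IP. In 4 of them, miR-2024g, new miR-47-1, new miR-66 and new miR-68, the arms did not overlap between the libraries. The new miR-68 star had 333 and 575 counts in the AGO2 IP against 23 and 38 of its guide, and 82.3 and 118 CPM against 3.9 and 5.71 CPM in IgG. It exceeded its guide in the AGO1 IP as well, with 1334 and 1549 counts against 53 and 21. The new miR-47-1 star had 159 and 444 counts in the AGO2 IP against 39 and 23 of its guide. Its sequence lies within the new miR-46 guide, which had 479 and 2466 counts. The star of miR-2024g likewise shares at least 15 bases with the miR-2024a-3p guide, which had 547 and 888 counts. Stars of new miR-47-1 and miR-2024g may thus hold reads of those guides, and for miR-2024g the arm label and guide list disagree. The remaining 4, miR-2043a, miR-2047, new miR-101-1 and new miR-15, rested on few counts.

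Being above IgG and being higher than in the AGO1 IP were different properties of an arm. Against the AGO1 IP 59 arms were higher (30.1% of those tested) and 24 lower (12.2%), in a comparison that shares the AGO2 libraries with the one above. All 59 were also called above IgG, and so were 12 of the 24 that were lower. Those 12 held miR-100-5p, miR-2023-3p and miR-2040b-3p, together with miR-9413, miR-9422, miR-9455, the guides of new miR-23, new miR-66, new miR-71, new miR-74 and new miR-79, and the new miR-103-1 star. Without the second AGO1 library 31 arms were called higher than AGO1, and scaling to miRNA counts gave 95.

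Enrichment over IgG was also measured in the AGO2 IPs of earlier stages. In primary polyps 116 arms were higher in AGO2 than in IgG (59.2%) and 1 lower (0.51%), and in early planulae 113 were higher (57.7%) and 6 lower (3.06%). The difference between the adult and the polyp enrichment was called for 0 arms in edgeR (0%), although 31 had an unadjusted p under 0.05. The polyp IgG libraries lay far apart for miR-2024e-3p (70481 and 5452 CPM) and miR-9414-5p (15764 and 1158 CPM). For miR-2023-3p they lay close (18025 and 16384 CPM). An arm that was not called is therefore not shown to be equal between these stages. TMM scaling called 4 and miRNA-sum scaling 2, and 29 were called without the second polyp IgG library and 2 without the first.

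The adult enrichment exceeded the planula enrichment for 12 arms (6.12%) and fell short of it for 0, while 27 arms had an unadjusted p under 0.05. miR-2023-3p had the largest difference, 8.54 ± 1.30 on the log2 scale (edgeR adjusted p = 9.63e-06). Its adult values are given above, and in planulae it had 25.4 and 31 CPM in the AGO2 IP against 98.5 and 1029 CPM in IgG. miR-100-5p differed by 6.37 ± 1.33, with 185 and 348 CPM in the planula AGO2 IP against 310 and 3362 CPM in planula IgG. In both guides the second planula IgG library was far above the first and above both planula AGO2 libraries. miR-2025-3p, with 50.6 and 124 CPM in the planula AGO2 IP and 12.2 and 56.1 CPM in planula IgG, differed by 3.78 ± 1.18. Without the second planula IgG library only miR-2023-3p was still called, at 6.02 (edgeR adjusted p = 4.34e-05), and without the first 14 arms were. Leaving out an adult IgG library left 3 arms or 1, and leaving out a planula AGO2 library left 2 or 3.

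**Figure D5:**
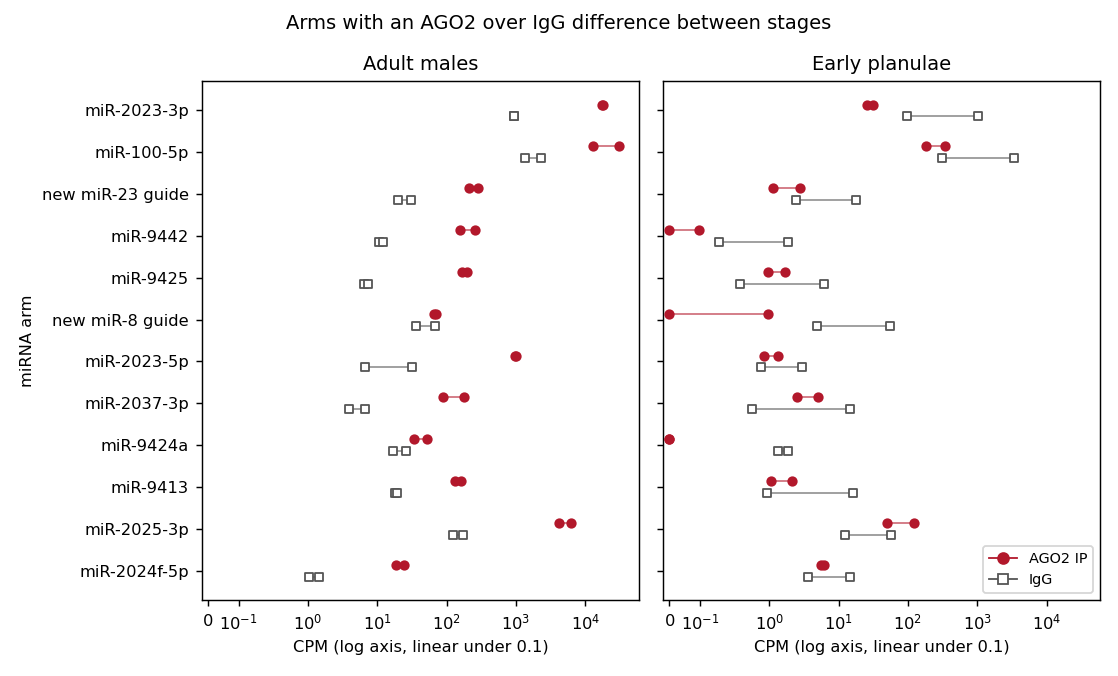
CPM on a log axis of the 12 arms whose AGO2 over IgG difference was larger in adult males (left) than in early planulae (right), 1 point per library, with the 2 libraries of an IP joined by a line. The adult AGO2 points lie to the right of IgG or, for the new miR-8 guide, within reach of it, while in planulae the IgG pairs span wide ranges and for several arms lie to the right of AGO2. Scaling to miRNA counts kept the sign of all 12 differences and lowered their adjusted p.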

How the data were processed

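Adult male libraries of the AGO2 IP and the IgG control (2 biological replicates each, by the study's methods) were analysed with the other 14 IP libraries. The methods describe precipitation from animal lysates, selection of RNA of 18 to 30 nt, a modified NEBNext small RNA kit, sequencing, counting with the quantifier of miRDeep2, and before it adapter trimming with cutadapt. Its version is not given in the sources here. The deposited table holds the raw counts per mature arm that the authors made in this way, together with the mature sequences, and its first word for newly annotated miRNAs was replaced by new. Arms were called guide or star by the study's annotation of each arm, which differs from its separate guide list for 7 miRNAs, and by that list where an arm had no such label. The quantifier can assign a read to more than 1 near-identical arm. Trimming and size selection leave out longer RNA, and the mapped read totals used as library sizes come from the study's supplement. The knockdown count table was not used.

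Counts were fitted with edgeR 4.0.16 in R 4.3.3 (glmQLFit and glmQLFTest, 9 groups, 9 residual degrees of freedom, genome-mapped reads as library sizes, no further scaling). Arms needed at least 10 counts in at least 2 of the 18 libraries, rows with equal counts were tested once, and p-values were adjusted by Benjamini-Hochberg over the 196 arms, with 0.05 as the threshold. Contrasts were AGO2 over IgG, AGO2 over AGO1, and AGO2 over IgG in adult males minus the same in polyps or planulae. The star to guide ratio was tested with the library as a block over 62 miRNAs. An arm with 0 counts in both IgG libraries was given a bound, with 3 counts over both libraries as the floor. Ratios with few IgG counts carry exact 95% counting intervals. Alternatives were the sum of miRNA counts, TMM, median-of-ratios factors or total reads as the scale, DESeq2 1.42.0, other filters, fewer libraries in the fit, every row tested, a 3-fold threshold, a replicate block and leaving out each library. The scripts were tested on simulated data. There the AGO2 over IgG test called 0 of 100 arms without a difference, 9 of 48 at 4-fold and 29 of 48 at 16-fold.

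Named guides were the 12 of highest level and the 8 of largest fold among those called without overlap (for the fold, with at least 50 counts in both AGO2 libraries), the 6 of highest level among those not called, the 6 with the smallest fold and the 4 highest in IgG. Named stars were the 8 of highest level and the 4 of largest fold (at least 20 counts in both AGO2 libraries). The members of the family lists and the leading results of the ratio and stage tests were named too. The members and the lists were chosen with earlier results of these data known. The study's preference lists, its annotation of new miRNAs and its dropping of earlier ones used some of these libraries.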

Additional observations from a re-analysis of the deposited data

Results flagged for a closer look

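The enrichment of AGO2 over IgG differed between adult males and early planulae for 12 arms by the test of the difference itself (edgeR, adjusted p from 9.63e-06 to 0.0488), each time with the higher value in adult males. On the log2 scale the adult value minus the planula value was 8.54 for miR-2023-3p, 6.35 for its star miR-2023-5p and 6.37 for miR-100-5p. It was 7.78 for miR-9442, 6.05 for miR-9425, 5.66 for miR-2037-3p, 5.44 for miR-9413, 3.78 for miR-2025-3p and 4.65 for miR-2024f-5p. The new miR-23 guide gave 5.71 and the new miR-8 guide 6.08, the second of these with a planula value of -5.70 and an adult value of 0.38 that was itself not called. miR-9424a gave 7.22, but it had 0 counts in both planula AGO2 libraries, so the size of its value depends on the prior count. The value of miR-9442 is uncertain in size too, with 1 and 0 counts in the planula AGO2 IP and 1 and 7 in planula IgG. The second planula IgG library stood above the first for all 12 arms, by 1029 against 98.5 CPM for miR-2023-3p and by 54.5 against 4.89 CPM for new miR-8. Without it only miR-2023-3p was called, and the part of that library in the other 11 values was not tested further.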

How the results depend on the processing

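The count of arms higher in the AGO2 IP than in IgG was 150 and stayed within 1.5 times of that under 10 of 13 other settings (134 to 153), but it was 4, 49 and 16 with miRNA-sum, TMM and median-of-ratios scaling, which called 10, 7 and 10 arms lower. All arms called higher on those scales were among the 150. Leaving out 1 library gave 108 to 140. Deviations of same-numbered AGO2 and IgG libraries correlated at -0.126 in adults, -0.131 in polyps and 0.101 in planulae, so these were not taken as pairs. Same-numbered AGO2 and AGO1 libraries were not checked in this way and were fitted without pairing. Some guides, such as new miR-39-1, new miR-48-1 and new miR-46, changed alike between the replicates of both IPs, while miR-2023-3p did not. With a replicate block 145 arms were called over IgG and 144 of them were among the 150. With the block the adult minus planula call of miR-2024f-5p was lost (adjusted p = 0.0785), and no other named call changed. A crossed block, chosen after seeing the data, called 141. Against the AGO1 IP miRNA-sum scaling called 95 arms higher and TMM 45 lower, and leaving out 1 library gave 31 to 61 higher. For the difference from polyps, miRNA-sum and TMM scaling called 2 and 4 and leaving out 1 library 0 to 29. For the difference from planulae, TMM called 23, miRNA-sum scaling 1 lower, and leaving out 1 library 1 to 14. The ratio of miRNA shares was 32.4 with total reads as the denominator.

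Directions over IgG turned under scaling to the miRNA sum for miR-100-5p (-0.79), miR-2022-3p (-3.21), miR-2023-3p (-0.12), miR-2024a-3p (-0.02), miR-2024e-5p (-2.91), miR-2024f-3p (-0.09), miR-2024f-5p (-0.30), miR-2024g-3p (-0.03), miR-2029-5p (-0.58), miR-2030-3p (-0.05), miR-2030-5p (-0.67), miR-2036-5p (-2.76), miR-2040a-5p (-0.56), miR-2040b-3p (-1.44), miR-9417 (-3.91), miR-9424a (-3.36) and the guides of new miR-103-1 (-2.96), new miR-36-1 (-3.85), new miR-6 (-2.28), new miR-69 (-1.61) and new miR-8 (-3.95). With median-of-ratios factors they turned for miR-100-5p (-0.22), miR-2022-3p (-2.68), miR-2024e-5p (-2.37), miR-2030-5p (-0.26), miR-2036-5p (-2.29), miR-2040b-3p (-0.88), miR-9417 (-3.42), miR-9424a (-2.82) and the guides of new miR-103-1 (-2.52), new miR-36-1 (-3.34), new miR-6 (-1.87), new miR-69 (-1.14) and new miR-8 (-3.46). With TMM they turned for miR-2022-3p (-1.53), miR-2024e-5p (-1.18), miR-2036-5p (-1.09), miR-9417 (-2.27), miR-9424a (-1.67) and the guides of new miR-103-1 (-1.28), new miR-36-1 (-2.20), new miR-6 (-0.66) and new miR-8 (-2.28). Over AGO1, TMM turned miR-2025-3p (-0.35), miR-2050-3p (-0.34) and miR-9417 (-0.53). Leaving out 1 library gave values over AGO1 from -0.05 to 0.66 for miR-2025-3p, from -0.47 to 0.79 for miR-2050-3p and from -0.18 to 0.31 for miR-9417. It gave values over IgG from -0.02 to 0.92 for the new miR-8 guide, star to guide ratios from -4.72 to 1.02 for miR-2036, and differences from polyps from -6.45 to 0.99 for the new miR-6 star. The 3 scalings take out the gain of miRNA reads as a whole by construction.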
